A study of Rattus norvegicus with 24 samples.

Results

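Thyroid glands of rats that had been fed an iodine-deficient diet for 2 months were compared at 2 late times, 14 days and 1 day beyond those 2 months, on 6 of the 24 Affymetrix arrays of a rat thyroid series. The 6 arrays were chosen by their titles, which name the deficient diet with normal water. Those of the 14-day group carry sample numbers 32, 33 and 34, and those of the 1-day group carry numbers 8, 9 and 12. All rats of the series were adult male Sprague-Dawley animals. The 3 arrays named diet day 14 below hold thyroid RNA of rats on the deficient diet and normal water, taken 2 months and 14 days into the experiment. The 3 arrays named diet day 1 hold thyroid RNA of rats on the same diet and water, taken at 2 months and 1 day. So both groups had long been on the diet, and neither is a start of feeding. Beside them stand 3 arrays each, per day, of rats on the deficient diet that also drank 95 mg of potassium perchlorate per liter, of rats on normal diet with that water, and of control rats on normal diet and normal water. Each perchlorate group had drunk the treated water for 14 days or for 1 day. Nothing in the labels says that each array holds 1 separate animal, so p-values speak only for the variation among these samples, some of which may be technical. The rats of day 14 and of day 1 were different samples taken on different days, so time on the diet and day of collection cannot be told apart within the diet groups.

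The thyroid takes up iodide through the sodium iodide symporter NIS, encoded by Slc5a5, oxidises it with thyroid peroxidase and hydrogen peroxide, and attaches it to thyroglobulin, from which the hormones are cut. When iodide is short, hormone output drops, the pituitary releases more thyrotropin (TSH), and TSH acts through its receptor Tshr and cyclic AMP on follicular cells. Long stimulation is known to enlarge the gland into a goitre, with division of follicular cells, growth of capillaries and remodelling of the stroma. Perchlorate is an anion that competes with iodide at NIS. The question of the comparison was whether the gland's transcript levels were stable over these last 2 weeks on the diet.

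The values are given throughout as log2(intensity + 16), quantile normalized over the 24 arrays, and a difference of 1 on that scale is a doubling for a bright gene and more than that for a dim one. A gene is represented by its probe set of highest mean signal. The labelled tissue was borne out by its markers, since the summed intensity of 9 follicular cell markers was 51500 to 53100 on the diet day 14 arrays and 51300 to 59300 on the diet day 1 arrays. Parathyroid RNA was also in every sample, as Pth, the parathyroid hormone gene, averaged 13.85 ± 0.06 at day 14 and 13.86 ± 0.17 at day 1 (SD, n = 3 each). Skeletal muscle RNA varied from array to array within both diet groups. The summed intensity of 19 muscle markers was 7630, 8480 and 28500 at day 14 and 5980, 6300 and 29200 at day 1, so 1 array of each group was well above the other 2. The 2 arrays of the series that stood farthest from their own groups were outside the diet groups: perchlorate day 1 replicate 18 and control day 1 replicate 22. Results that use the controls are therefore also given without them where a call changed. All 24 arrays share 1 estimate of the spread. These 2 arrays therefore also enter the standard errors, intervals and p-values of the diet comparison. Day 14 against day 1 on perchlorate alone was not refitted without replicate 18, and its values below carry that limit.

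On the diet alone, no transcript passed the test between day 14 and day 1. Of 31042 probe sets, 0 (0%) had an adjusted p under 0.05 in limma with Benjamini-Hochberg adjustment, and 1305 (4.2%) had an unadjusted p under 0.05, of which 702 (2.26%) were higher and 603 (1.94%) lower at day 14. Without the 2 arrays that stood apart, the diet comparison still had 0 calls, but 2193 probe sets had an unadjusted p under 0.05. The genes with the clearest differences were Itih3 and Il1b, both higher at day 14. Slc5a5 and Tg differed little, and none of the measured genes of hormone synthesis and iodide handling passed. The control rats, over the same days, likewise gave 0 calls (0%), with 1442 probe sets (4.65%) at an unadjusted p under 0.05. The rats on the diet with perchlorate gave 252 calls (0.812%), of which 191 (0.615%) were higher and 61 (0.197%) lower at day 14, and 3825 (12.3%) at an unadjusted p under 0.05.

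**Figure D1:**
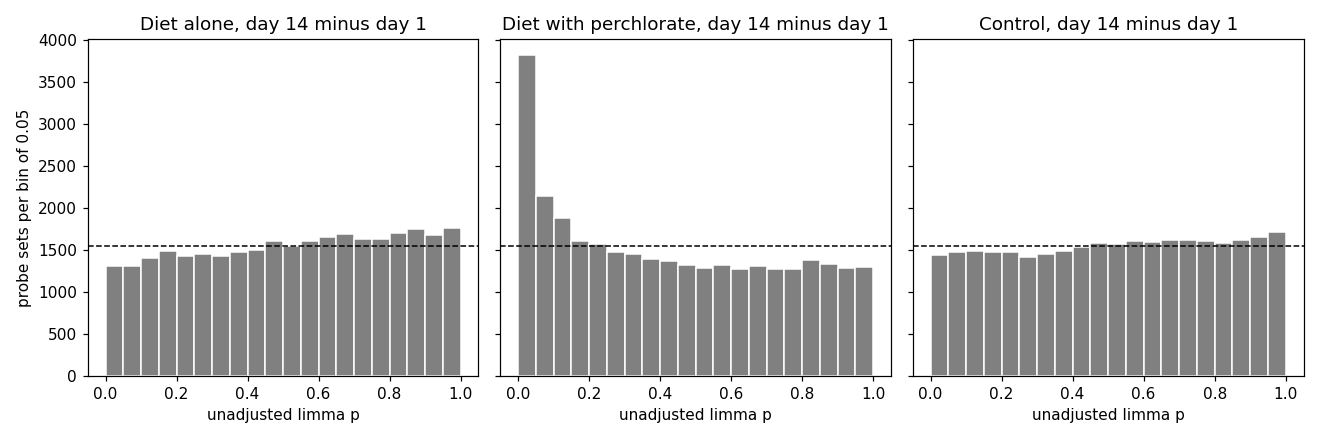
Number of probe sets (y axis) per bin of unadjusted limma p (x axis, bins of 0.05) for day 14 minus day 1 on the diet alone, on the diet with perchlorate and in controls; the dashed line is the mean count per bin. The first bin holds 1305 probe sets on the diet alone, below the dashed line, 3825 on the diet with perchlorate, far above it, and 1442 in controls, below it.

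The arrays of the diet groups were about as much alike across the 2 days as within a day. Pearson correlations over the 31042 probe sets, given as a description, were 0.98 to 0.982 among the 3 day 14 arrays, 0.974 to 0.98 among the 3 day 1 arrays and 0.975 to 0.981 over the 9 pairs across days. The median absolute difference between day 14 and day 1 was 0.153 on the diet alone, 0.208 on the diet with perchlorate, 0.255 on perchlorate alone and 0.158 in controls. A difference above 1 in either direction was found for 130 probe sets (0.419%) on the diet alone, 75 higher and 55 lower, against 716 (2.31%) on the diet with perchlorate and 322 (1.04%) in controls. These sizes carry no test of their own.

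How large a difference the arrays allow was read from the 95% confidence interval of each probe set, without adjustment for the number of probe sets. The interval lay wholly between -1 and 1 for 25390 of 31042 probe sets (81.8%). Among the 9404 representative genes with a mean of at least 7 over the 6 diet arrays it did so for 8610 (91.6%). All 35 measured ribosome biogenesis genes and all 32 measured mitochondrial respiratory chain genes were among those with such narrow intervals. Of the 13 measured genes of hormone synthesis and iodide handling, 10 (76.9%) were among them, beside 84.3% of all representative genes. In contrast, 26 of 59 cell cycle genes, 12 of 29 interferon genes and 3 of 19 muscle genes were, so for these groups the arrays leave room for larger differences. A missing call does not show that a level was the same at both times.

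Slc5a5, the iodide transporter NIS, differed by less than the error of the arrays late on the diet. Its values were 11.85, 12.24 and 11.79 at diet day 14, against 12.18, 12.20 and 11.73 at diet day 1. The groups overlapped, and the difference was -0.08 ± 0.19 (SE, 95% interval -0.47 to 0.31, limma adjusted p = 1). Controls were lower on every array, with 11.22, 10.62 and 10.99 at day 14 and 10.66, 10.70 and 11.09 at day 1. The diet mean thus exceeded the same-day control mean by 1.01 at day 14 and by 1.22 at day 1. On the diet with perchlorate the day 14 mean exceeded the day 1 mean by 0.64 (adjusted p = 0.122), and the diet's own time difference minus that one was -0.715 (adjusted p = 0.814).

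Tg, the thyroglobulin gene, had 13.69, 13.65 and 13.65 at diet day 14, against 13.75, 13.84 and 13.91 at diet day 1. No day 14 array reached the lowest day 1 array, but the difference was only -0.17 ± 0.11 (95% interval -0.40 to 0.07, adjusted p = 1), and a second Tg probe set differed by -0.01. Among all 14217 representative genes, 941 (6.62%) were higher and 1008 (7.09%) lower without overlap at day 14, so such a split of 3 against 3 arrays was common. Tg was the only one of the 13 measured genes of hormone synthesis and iodide handling that separated. None of the 13 was called, none had an unadjusted p under 0.05, and their median difference was -0.08, against -0.01 over all 14217 genes. Without diet day 1 replicate 9 that median was 0.002, so it has no settled sign.

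None of the enzymes and channels around the iodination step passed the test, though some of their differences exceeded 1 standard error. Duox2, a hydrogen peroxide generating oxidase, had 10.74, 10.89 and 10.88 at diet day 14, against 10.89, 11.38 and 11.14 at day 1, a difference of -0.30 ± 0.22. Duoxa1, a maturation factor gene of the dual oxidase family, differed by -0.36 ± 0.26 and Ano1, an apical anion channel, by -0.39 ± 0.21. Iyd, the deiodinase that recovers iodide from iodotyrosines, had 13.25, 13.24 and 13.48 at day 14 and 13.37, 13.25 and 13.09 at day 1, with a 95% interval of -0.19 to 0.36 for the difference. Dio1, which removes an outer ring iodine from thyroxine, spread too widely for a narrow statement. Its values were 11.50, 11.70 and 10.62 at day 14 and 11.70, 10.44 and 10.55 at day 1, giving an interval of -0.58 to 1.34.

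Tshr, the TSH receptor gene, was the lowest of the follicular genes relative to day 1. It had 9.76, 8.88 and 9.51 at diet day 14, against 10.05, 10.10 and 10.01 at diet day 1. The groups did not overlap, but the spread at day 14 was wide and the difference of -0.67 ± 0.30 did not pass (unadjusted p = 0.0371, adjusted p = 1). The control difference was -0.04, and the diet with perchlorate gave -0.66. The transcription factors that keep follicular cell identity had narrow intervals around small differences, with -0.05 for Pax8 (95% interval -0.29 to 0.19), 0.17 for Nkx2-1 (-0.14 to 0.48), and 0.22 for Cdh16 (-0.23 to 0.67), a kidney and thyroid cadherin that is also counted with them here.

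Of 17 genes of TSH receptor signalling and cyclic AMP, 0 were called, and 2 were higher and 1 lower at an unadjusted p under 0.05, against 327 higher and 250 lower among all 14217 genes. The 2 higher ones were phosphodiesterases that break down cyclic AMP. Pde4b had 9.70, 9.64 and 9.73 at diet day 14, against 9.18, 9.17 and 8.98 at day 1, a difference of 0.58 ± 0.15 (adjusted p = 1). A second Pde4b probe set gave 0.76. Pde4d had 8.42, 8.30 and 8.41 at day 14, against 7.78, 7.85 and 7.91 at day 1, a difference of 0.53 ± 0.22. Its other 2 probe sets gave 0.17 and 0.73. The brightest probe set of each gene stood apart between days, with tight values on each side. In controls the same differences were 0.21 and 0.29, and the diet's difference minus the control's was 0.37 for Pde4b (unadjusted p = 0.0901).

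**Figure D2:**
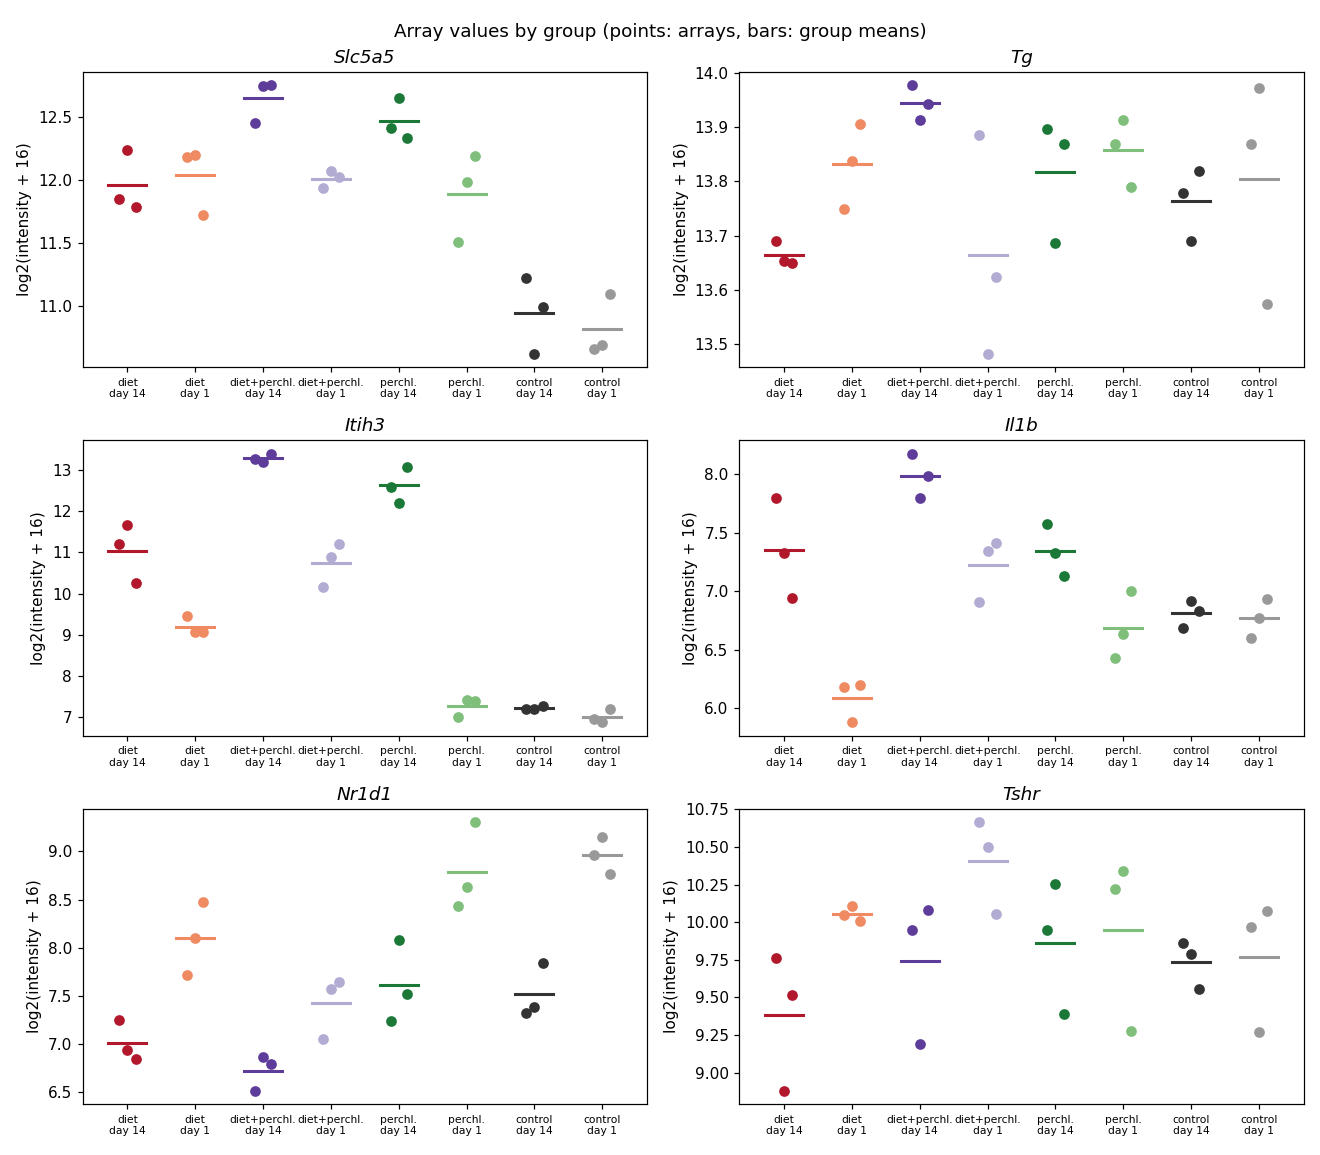
log2(intensity + 16) of Slc5a5, Tg, Itih3, Il1b, Nr1d1 and Tshr (y axes, each with its own range that does not start at 0) on all 24 arrays, with groups along the x axis, 1 point per array and a bar at each group mean. Slc5a5 lies at about the same level at both diet days, above both control groups; Itih3 and Il1b are higher at diet day 14 than at diet day 1, and Nr1d1 is lower at day 14 than at day 1 under each of the 4 treatments.

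The genes with the clearest differences on the diet were Itih3, which encodes a serum protein chain that is bound to hyaluronan in matrix, Il1b, the gene of the inflammatory cytokine interleukin-1 beta, and, in the other direction, Nr1d1, the clock repressor REV-ERB alpha. Their promoters are shown because the differences of these 3 genes are described next. All 3 genes matched the RefSeq promoter table (assembly GRCr8), which gives 250 bases before to 50 after each start, all on the minus strand here. Capitals mark matches, on either strand, to the E-box CACGTG or the cyclic AMP response element TGACGTCA.
Itih3, chr16:6123325-6123624: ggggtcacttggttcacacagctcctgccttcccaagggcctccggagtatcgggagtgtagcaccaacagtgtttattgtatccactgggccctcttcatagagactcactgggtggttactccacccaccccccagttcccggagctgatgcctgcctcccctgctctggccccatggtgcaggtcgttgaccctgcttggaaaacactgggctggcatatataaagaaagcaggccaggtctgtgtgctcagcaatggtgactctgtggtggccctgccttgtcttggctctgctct
Il1b, chr3:137036532-137036831: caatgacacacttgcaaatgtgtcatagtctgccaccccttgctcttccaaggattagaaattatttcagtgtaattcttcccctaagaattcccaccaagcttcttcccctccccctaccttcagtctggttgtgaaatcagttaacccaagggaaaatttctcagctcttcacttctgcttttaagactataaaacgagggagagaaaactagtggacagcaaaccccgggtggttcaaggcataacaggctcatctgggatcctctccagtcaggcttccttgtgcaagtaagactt
Nr1d1, chr10:84229405-84229704: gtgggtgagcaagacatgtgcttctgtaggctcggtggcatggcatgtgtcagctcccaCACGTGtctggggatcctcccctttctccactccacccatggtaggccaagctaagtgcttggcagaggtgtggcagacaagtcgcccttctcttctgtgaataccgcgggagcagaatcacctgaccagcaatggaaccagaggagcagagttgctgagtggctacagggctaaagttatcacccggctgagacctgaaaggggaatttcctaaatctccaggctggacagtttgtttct
The Nr1d1 window held 1 E-box and no other match, and a second annotated Nr1d1 start held neither motif. Of 33469 promoters of the same length in the table, 2148 (6.42%) held the E-box and 612 (1.83%) the cyclic AMP response element. The Itih3 and Il1b windows held neither motif. A match is a description of the sequence alone.

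Itih3 had 11.20, 11.65 and 10.25 at diet day 14, against 9.44, 9.06 and 9.06 at diet day 1. All 3 day 14 arrays were above all day 1 arrays, and replicate 34 was the lowest of the 3. The mean was 11.03 ± 0.72 at day 14 and 9.19 ± 0.22 at day 1 (SD, n = 3 each), a difference of 1.85 ± 0.28 (SE, 95% interval 1.26 to 2.43), or 3.60-fold on the log2(intensity + 16) scale. Its adjusted p of 0.0564 in limma just missed 0.05. It lay between 0.00104 and 0.721 over 17 alternative settings and was under 0.05 in 4 of them, among them the fit without diet day 14 replicate 34, where the difference was 2.24 (adjusted p = 0.00104).

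Both diet groups lay above the control arrays, which had 7.20, 7.21 and 7.27 at day 14 and 6.96, 6.88 and 7.19 at day 1. The diet minus control difference of Itih3 was 3.81 at day 14 and 2.18 at day 1. With perchlorate added to the diet, Itih3 averaged 13.28 at day 14 and 10.75 at day 1, a change that passed the test (2.53, adjusted p = 0.000412). The diet's time difference minus the control's was 1.63 (unadjusted p = 0.00053, adjusted p = 1), and minus that on the diet with perchlorate it was -0.69 (adjusted p = 1), so neither difference between treatments passed.

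Il1b had 7.80, 7.32 and 6.94 at diet day 14, against 6.18, 5.88 and 6.20 at diet day 1. The groups stood apart, by 1.27 ± 0.22 (95% interval 0.81 to 1.73), but the adjusted p was 0.176. With array quality weights the difference was 1.31 and passed (adjusted p = 0.0184), and it did not pass in the other 16 alternatives. Controls had 6.69, 6.92 and 6.83 at day 14 and 6.60, 6.77 and 6.93 at day 1. Every diet day 1 array was therefore below every control array. Every diet day 14 array was above them, but the lowest only just, at 6.94 against 6.93. The diet minus control difference of Il1b was 0.54 at day 14 and -0.68 at day 1. As a whole, the acute phase and inflammation list did not follow Il1b. Of its 24 measured members 15 were on the higher side, with a median of 0.10, against 0.03 in controls. Without diet day 14 replicate 33 that median was 0.02. Separation went upward for 3 and downward for 3, beside 6.62% and 7.09% of all genes. The cytokine genes Tnf and Il6 were dim and lower without overlap, with differences of -0.49 and -0.54 that did not pass. A still dimmer Tnf probe set gave -0.38 and overlapped.

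Nr1d1 had 7.25, 6.94 and 6.84 at diet day 14, against 7.71, 8.10 and 8.48 at diet day 1, a difference of -1.09 ± 0.26 (adjusted p = 1). Day 14 was lower without overlap under all 4 treatments: by -1.44 in controls (adjusted p = 0.301), by -0.70 on the diet with perchlorate (adjusted p = 0.238) and by -1.18 on perchlorate alone (adjusted p = 0.0183). The call on perchlorate alone was not retested without day 1 replicate 18, the array that stood apart in that group. The diet's difference minus the control's was 0.36 (adjusted p = 1). REV-ERB alpha is known to cycle over the day, and the sources used here do not give the hour of collection. Of 17 measured clock genes 0 were called on the diet, and their median difference was 0.04 on the diet and 0.07 in controls. The control differences went in both directions, which a median near 0 hides. Per3, Tef, Nfil3, Dbp and Bmal1 are named here after their values were seen, so they do not stand for the whole list. Control day 1 also includes replicate 22, which stood apart. Per3 and Tef had -0.78 and -0.62 in controls and 0.16 and -0.12 on the diet. Nfil3 and Cry1 had 0.93 and 0.81 in controls and 0.04 and 0.47 on the diet. No clock gene's difference between the diet and control time courses passed. Dbp, another rhythmic gene, differed by -0.11 on the diet and by -1.09 in controls, and Bmal1, a clock gene whose transcription REV-ERB alpha represses, by 0.24 and 0.80.

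The rest of the largest differences formed no set that passed. The 14 largest higher differences without overlap, all with an unadjusted p under 0.01 and a mean of at least 7, ran from 0.74 to 2.40, and the 14 largest lower ones from -0.54 to -1.09. None of the 28 passed. Over all probe sets, 234 (0.754%) had an unadjusted p under 0.01. Of the 14 higher genes, 12 were also higher at day 14 on the diet with perchlorate and 13 on perchlorate alone, with medians of 0.74 and 1.52. Over all 14217 genes those medians were -0.013 and -0.052. How many of all genes were on the higher side in those treatments was not counted. The diet-alone groups share no arrays with them, but perchlorate day 1 includes replicate 18, which stood apart. In controls 9 of the 14 were higher, with a median of 0.03. Of the 14 lower genes, 13 were lower on the diet with perchlorate, 12 on perchlorate alone and 10 in controls, with medians of -0.38, -0.28 and -0.08.

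**Figure D3:**
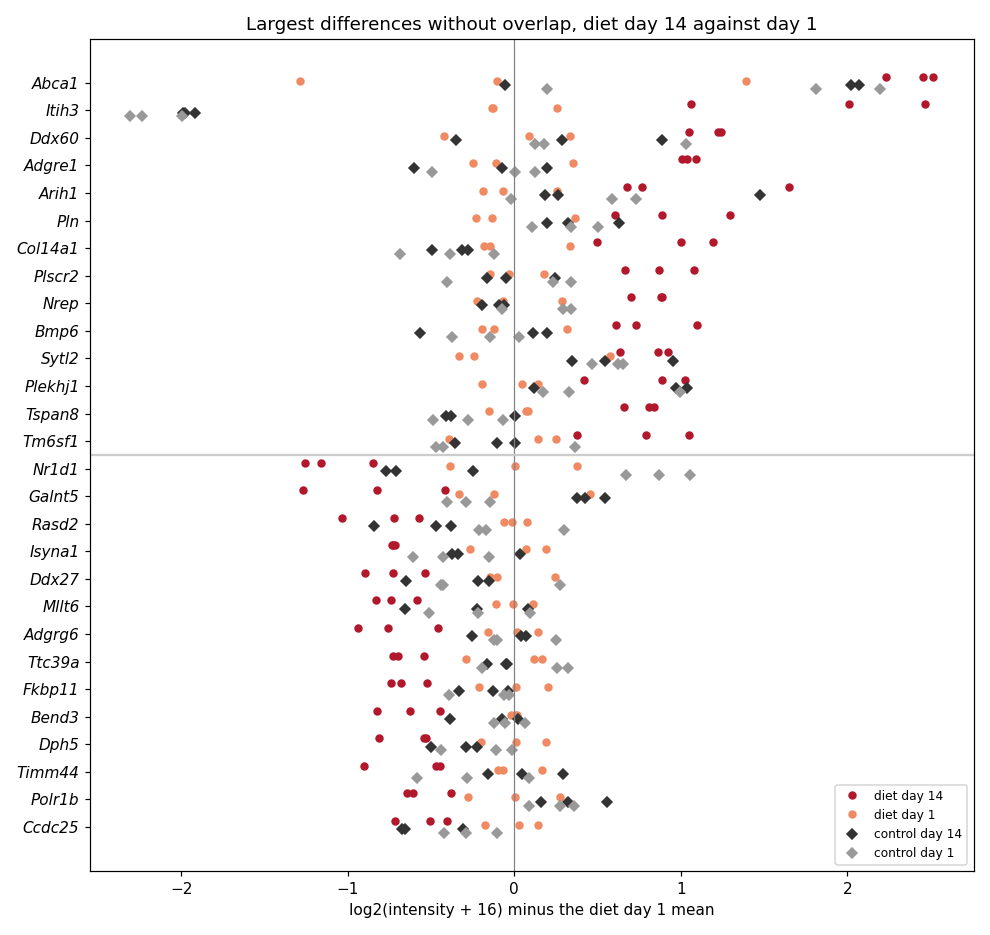
log2(intensity + 16) of each array minus the diet day 1 mean of that gene (x axis) for the 14 largest higher and the 14 largest lower differences without overlap (rows), with diet day 14 and day 1 arrays as circles and control day 14 and day 1 arrays as diamonds. The genes were chosen so that the 2 sets of circles do not overlap; only Itih3 has all control arrays below every diet array, and the day 1 circles of Abca1 span more than 2 units.

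Among the higher genes, Adgre1, which encodes a surface receptor of tissue macrophages, had 8.75, 8.72 and 8.80 at diet day 14, against 8.06, 7.60 and 7.47 at day 1, a difference of 1.05 ± 0.24 (adjusted p = 0.992). Nrep, a neuronal regeneration related protein gene, had 11.30, 11.30 and 11.12 at day 14, against 10.20, 10.70 and 10.36 at day 1, a difference of 0.82 ± 0.20. Both were tight at day 14 and showed no such difference in controls, where the values were -0.04 and -0.30. Abca1, the cholesterol exporter, gave the largest difference of all 14, 2.40 ± 0.74, but its day 1 values of 9.97, 7.29 and 8.47 were far apart. Its other 3 probe sets gave 1.36, 0.27 and -0.12, so the probe sets disagree. The same held for Arih1, a ubiquitin ligase gene, with 1.03 for the brightest probe set and 0.06, -0.08 and 0.06 for the others.

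Among the lower genes, Isyna1, which makes inositol phosphate from glucose phosphate, had 11.01, 11.00 and 11.02 at diet day 14, against 11.81, 11.93 and 11.47 at day 1, a difference of -0.73 ± 0.19. Galnt5, a glycosyltransferase that starts mucin type chains, averaged 8.49 ± 0.43 at day 14 and 9.33 ± 0.41 at day 1, and Polr1b, a subunit of RNA polymerase I, had 8.29, 8.03 and 8.06 at day 14, against 8.94, 8.39 and 8.68 at day 1. For Galnt5 the control difference was 0.73, of opposite sign, and the diet's difference minus the control's was -1.56 (unadjusted p = 0.000782, adjusted p = 1). No probe set passed this test of the diet's time difference against the control's: 0 of 31042 (0%) at an adjusted p under 0.05, with 1122 (3.61%) at an unadjusted p under 0.05.

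Aspg, an asparaginase gene, had the largest of the 12 such differences from controls that were chosen for naming. It had 7.64, 9.01 and 8.0 at diet day 14, against 7.56, 7.57 and 7.50 at diet day 1, and 4.59, 4.62 and 4.80 in day 14 controls, against 6.66, 6.18 and 5.22 in day 1 controls. The diet groups differed by 0.67 ± 0.36 and the control groups by -1.35, which made up most of the 2.03 between the time differences (unadjusted p = 0.000715, adjusted p = 1). Against the diet with perchlorate, the diet's time difference likewise had 0 of 31042 probe sets (0%) past the adjusted threshold, and 1602 (5.16%) at an unadjusted p under 0.05. So although 252 probe sets passed over time with perchlorate and 0 without, no probe set was shown to differ between these time courses.

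Gene groups were described through 33 lists of pathways and cell type markers, with the count of members that passed, the count that separated and the median. No list held a called gene in the diet comparison. Over all 14217 genes, 6921 were on the higher side, and 6.62% were higher and 7.09% lower without overlap, which is the background for the counts below. Lists of immune cells, stroma, vessels and the cell cycle were among those with most members on the higher side, as was that of the lysosome (19 of 23). Ribosome biogenesis, protein folding, glycolysis and cholesterol synthesis were among those with most members on the lower side, as were the muscle, adipocyte, follicular, C cell and parathyroid markers. In bulk RNA, fewer cells of a type and less RNA per cell cannot be told apart, and the same holds for more.

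**Figure D4:**
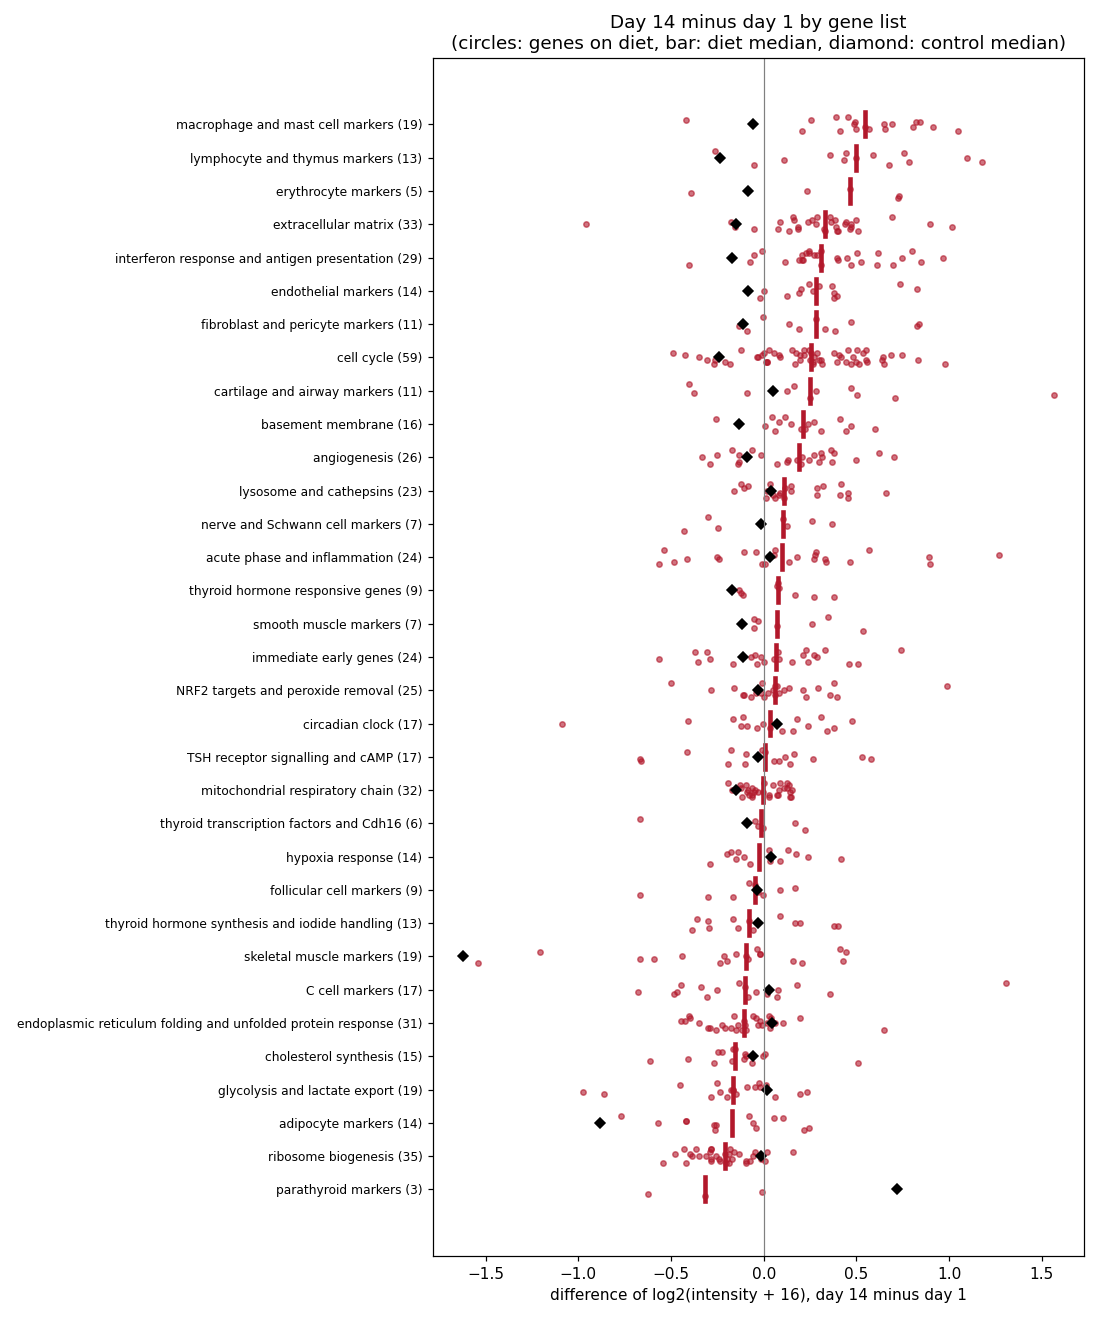
Day 14 minus day 1 difference of log2(intensity + 16) (x axis) for each measured gene of 33 lists (rows, with the number of measured genes), as circles for the diet, with a vertical bar at the diet median and a diamond at the control median. Macrophage and mast cell markers have the highest diet median (0.55) and the 3 parathyroid genes the lowest (-0.32); muscle and adipocyte markers have control medians of -1.62 and -0.88.

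Of 19 macrophage and mast cell markers, 18 were on the higher side at diet day 14 and 6 separated upward and 1 downward, beside 6.62% and 7.09% of all genes. Their median difference was 0.55, against -0.06 in controls. Csf1r, the receptor for the macrophage growth factor, differed by 0.65 ± 0.22, C1qc, a chain of complement C1q, by 0.82 ± 0.32, and Mrc1, the mannose receptor, by 0.57 ± 0.22. The mast cell genes Cpa3 and Fcer1a, named after their values were seen, differed by 0.92 and 0.84. The other mast cell genes of the list are not given here. The summed intensity of the 19 markers was 10200, 11400 and 13100 at day 14, against 5880, 8030 and 10800 at day 1, so the groups overlapped in the sum. Without diet day 1 replicate 9 the median was 0.33. In controls the sums were 5940 to 8820 at day 14 and 7190 to 8290 at day 1. On the diet with perchlorate the median was 1.01 and 5 of the 19 passed, beside 170 of all 14217 genes.

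Lymphocyte and thymus markers had a median of 0.50 over 13 genes, 11 of them on the higher side, but this rested on a single array of day 14. Their summed intensity was 1220, 1240 and 2920 at diet day 14, against 888, 888 and 1210 at day 1, and the median was 0.12 without diet day 14 replicate 32. Interferon response and antigen presentation genes had 25 of 29 members on the higher side, and 11 members separated upward and 0 downward, beside 6.62% and 7.09% of all genes. Their median was 0.31 on the diet and -0.17 in controls. Rsad2, an antiviral protein gene, had 9.15, 8.30 and 9.74 at day 14, against 7.79, 8.39 and 8.11 at day 1, and so overlapped. B2m, the light chain of class I molecules, had 13.42, 13.51 and 13.48 at day 14, against 13.24, 12.96 and 13.28 at day 1, a smaller but separated difference of 0.31 ± 0.11. The diet minus control median over these 29 genes was 0.32 at day 14 and -0.23 at day 1.

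Of 33 extracellular matrix genes, 29 were on the higher side and 11 separated upward, none downward, beside 6.62% and 7.09% of all genes. Their median was 0.33 on the diet and -0.15 in controls. Sparc, a matrix protein of remodelling tissue, had 11.09, 11.49 and 11.31 at diet day 14, against 10.78, 10.91 and 10.66 at day 1, a difference of 0.51. Col12a1 and Col14a1, collagens that associate with fibrils, differed by 1.01 and 0.90, and Lum, a collagen binding proteoglycan, by 0.47. Dimmer Col12a1 probe sets gave 0 and 0.21 without separation, so the probe sets of that gene disagree. A dimmer Col14a1 probe set gave 0.72 and overlapped. With perchlorate added, the matrix median was 1.03 and 11 of the 33 passed, beside 170 of all 14217 genes. Markers of the cells that make matrix lay on the same side, with a median of 0.28 over 11 fibroblast and pericyte markers, and a summed intensity of 25200 to 32400 at day 14 against 20000 to 28500 at day 1. Without diet day 1 replicate 9 that marker median was 0.15, with 7 of 11 on the higher side. The part of these cells in the matrix result was not tested.

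Vessel genes followed the same pattern at a smaller size. Of 14 endothelial markers 13 were on the higher side and 4 separated upward, beside 6.62% of all genes, with a median of 0.28, against -0.085 in controls. Eng, a co-receptor of endothelial cells, had 10.96, 11.18 and 10.76 at diet day 14, against 9.46, 10.54 and 10.42 at day 1, a difference of 0.83. The day 1 array with 9.46 is replicate 8, which also had the lowest sum of endothelial markers in its group (18800, against 26200 and 27000 on the other 2), and without it the endothelial median was 0.17. Angiogenesis genes had 17 of 26 on the higher side with a median of 0.19, and 15 of 16 basement membrane genes were on the higher side with a median of 0.21. Both depended on single arrays. Without diet day 1 replicate 8 the angiogenesis median was 0.05 and the basement membrane median 0.054, with 10 of 16 on the higher side, and without diet day 14 replicate 33 they were 0.086 and 0.119. With median scaling the angiogenesis median was 0.116.

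Cell cycle genes were on the higher side for 47 of 59 members, with a median of 0.25 on the diet, -0.24 in controls and 0.77 on the diet with perchlorate. No member had an unadjusted p under 0.05 on the diet and 1 separated upward. Mki67, the gene of the proliferation antigen Ki-67, is an example, with 9.18, 9.73 and 9.15 at diet day 14, against 7.85, 9.37 and 7.90 at diet day 1. Diet day 1 replicate 9 lay within the day 14 range, and the other 2 day 1 arrays lay more than a unit lower. The cell cycle median was 0.55 without that replicate and 0.075 without diet day 1 replicate 12, so its size depends on single arrays of the day 1 group.

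Ribosome biogenesis genes lay mostly on the lower side, with 32 of 35 members below 0. Of the 35, 11 separated downward and 0 upward, beside 7.09% and 6.62% of all genes. Its median was -0.21 on the diet, -0.02 in controls and -0.085 on the diet with perchlorate. Polr1b differed by -0.54 ± 0.15, and Wdr12, a factor of large subunit assembly, had 8.54, 8.59 and 8.78 at diet day 14, against 9.38, 8.91 and 9.06 at day 1. Nop56, a core protein of the small nucleolar particles that methylate ribosomal RNA, had 8.78, 8.90 and 8.97 at day 14, against 9.25, 9.26 and 9.18 at day 1. A dimmer Nop56 probe set differed by only -0.03 and overlapped. The median stayed below 0 under both other scalings and without each of the 6 arrays, between -0.28 and -0.16.

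Genes of protein folding in the endoplasmic reticulum, which a gland that exports thyroglobulin uses heavily, had 9 of 31 members separated downward and 1 upward, beside 7.09% and 6.62% of all genes. Their median of -0.11 was -0.07 without diet day 1 replicate 8 and -0.19 with median scaling. The 1 upward gene was Ddit3, the stress factor CHOP, with 8.54, 8.88 and 8.78 at diet day 14, against 8.40, 7.64 and 8.22 at day 1. The chaperone gene Hyou1 differed by -0.45 and the co-chaperone gene Dnajc3 by -0.43. Glycolysis and lactate export had 4 of 19 and cholesterol synthesis 2 of 15 members above 0, with medians of -0.16 each. The glycolysis median was -0.103 without diet day 14 replicate 33 and -0.09 on the values as deposited, and the cholesterol median was -0.088 without diet day 14 replicate 32 and -0.069 as deposited. Slc16a3, a lactate exporter, gave the difference farthest from 0 among the genes of both lists, -0.97. Mitochondrial respiratory chain genes had small differences, with a median of -0.002 and all 32 members between -0.20 and 0.15.

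Other cell types in the tissue blocks gave no settled difference. The muscle median was -0.095 on the diet but lay between -1.24 and 1.00 when single arrays were left out, so its sign depends on which array is left out. The muscle-rich arrays were diet day 14 replicate 32, also the one with the highest lymphocyte sum, and diet day 1 replicate 12. Adipocyte markers had a median of -0.17, and C cell markers, those of the calcitonin cells, of -0.10 over 17 genes. In the same days the control medians of muscle and adipocyte markers were -1.62 and -0.88. Their part in the differences between the diet and control time courses was not tested.

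A list of 43 genes that the diet or perchlorate had moved against control in earlier results of these same arrays was set side by side at both days. It is no independent evidence of any direction, or of a larger size on either day, since it was chosen on these arrays. At day 14, 27 of the 43 were higher on the diet than in controls and 16 were lower, and 26 of the 27 and 15 of the 16 lay on the same side at day 1. The median diet minus control difference of the 27 was 1.25 at day 14 and 0.76 at day 1, and that of the 16 was -0.99 and -0.89. Because the split was made by the sign at day 14, it favours larger medians on that day. The 2 exceptions were Smtnl2, a smoothelin-like gene, at 1.77 at day 14 and -0.01 at day 1, and Aldh1a3, a retinaldehyde dehydrogenase, at -0.66 at day 14 and 0.31 at day 1.

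Within that list, no gene's own day 14 minus day 1 difference on the diet passed. Uroc1, an enzyme of histidine breakdown, had 7.23, 8.40 and 7.04 at diet day 14, against 7.48, 7.06 and 7.30 at diet day 1, and its diet minus control difference was 2.07 at day 14 and 2.24 at day 1. Aqp1, a water channel of vessels, was 1.80 above control at day 14 and 1.59 at day 1. Stra6, a retinol transporter, had 7.48, 6.18 and 7.91 at diet day 14, against 8.04, 8.64 and 7.83 at day 1, and its diet minus control difference was -2.24 at day 14 and -1.68 at day 1. A few lay nearer to control at day 14, among them Slc26a10 (0.62 at day 14, 1.23 at day 1) and Nqo1, a quinone reductase (-0.54 at day 14, -1.19 at day 1).

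**Figure D5:**
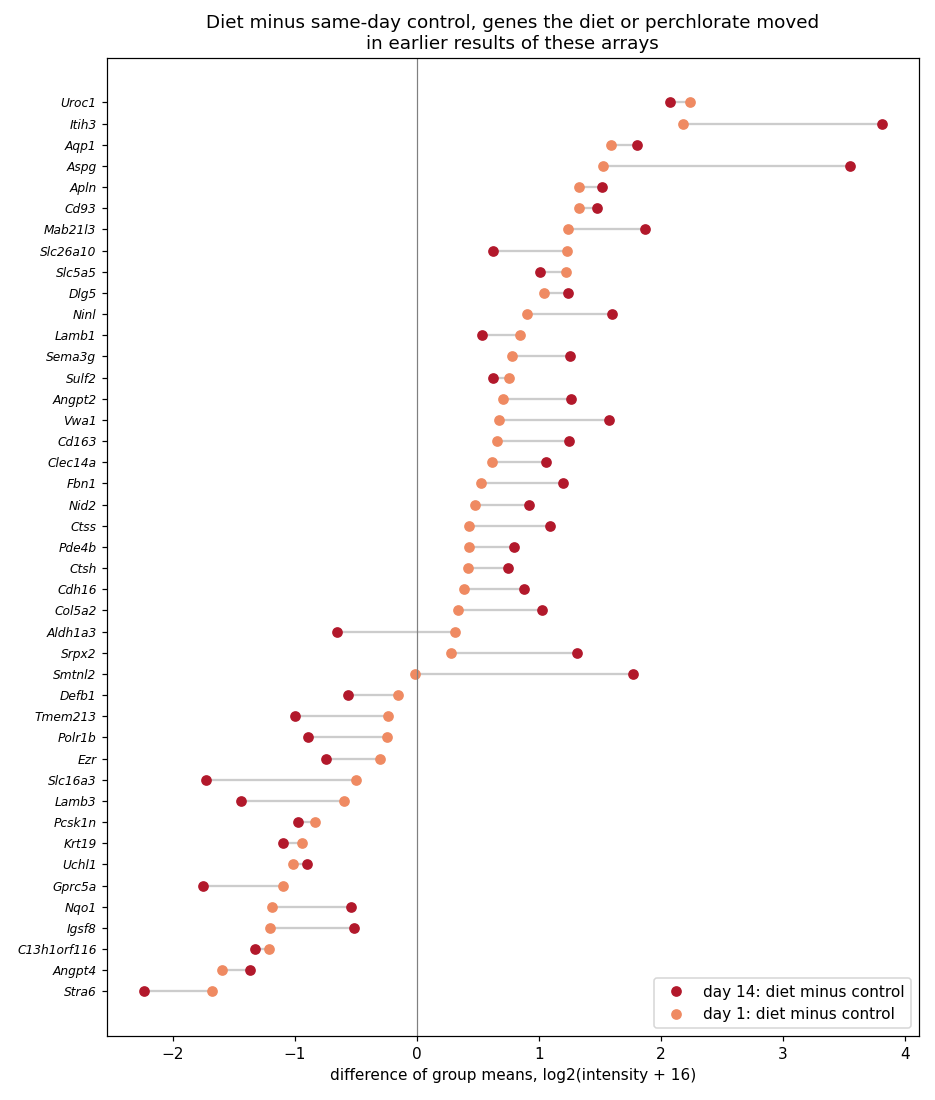
Diet minus same-day control difference of group means in log2(intensity + 16) (x axis) for the 43 genes chosen in earlier results of these arrays (rows), dark points for day 14 and light points for day 1, joined by a line. For 41 of the 43 genes both points lie on the same side of 0; Itih3 and Aspg lie at 3.81 and 3.55 at day 14.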

How the data were processed

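Thyroid total RNA was extracted with Trizol, cleaned on an RNeasy column, labelled with biotin and hybridised to 24 Affymetrix arrays, per the labels. The deposited values are linear intensity per probe set, made with the GCOS software according to the submitters' processing notes; the sources used here give neither its version nor its settings. The 2% trimmed means ran from 320 to 488. Of 31099 probe sets, 57 controls were left out, and of the other 31042, 20826 have 1 gene symbol, 436 several and 9780 none in GEO's platform annotation; 20758 symbols matched RefSeq (GRCr8). No 2 arrays held identical values. The number of arrays, 3 a group, limits the precision.

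From the deposited intensity, log2(intensity + 16) was computed and quantile normalized over all 24 arrays. limma 3.58.1 in R 4.3.3 fitted 1 mean per group over 8 groups (eBayes with a trend, two-sided, Benjamini-Hochberg over 31042 probe sets, threshold 0.05), with no filter on low values. Groups came from the titles. The fit was tested on simulated data. Alternatives were other scalings, pseudocounts, a filter at the 40th percentile, fewer arrays, array weights, no trend and leaving out each array. Contrasts were day 14 minus day 1 per treatment and differences between those. Genes named for size are the 14 largest each way without overlap, first those past the threshold, then those at an unadjusted p under 0.01 and a mean of at least 7, and the 6 largest each way for the difference from control; list members were added. A gene is its probe set of highest mean (14217 genes). The members, lists and rules were chosen with earlier results of these data known.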

Additional observations from a re-analysis of the deposited data

How the results depend on the processing

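No paired analysis was possible because the groups compared share no replicate numbers. The count of probe sets called between diet day 14 and day 1 was 0 as reported, 1 with a pseudocount of 1 (Itih3, adjusted p = 0.0498), 1 with the filter at the 40th percentile (Itih3, 0.0335) and 2 with array quality weights (Itih3, 0.00736, and Il1b, 0.0184). Leaving out 1 array gave 0 to 1: Itih3 without diet day 14 replicate 34, and, without replicate 33, the dim hormone gene Prl (adjusted p = 0.0416), which was named after its values were seen and had 5.35, 4.26 and 5.39 at day 14, against 4.28, 4.16 and 4.08 at day 1. The control count was 0 as reported, 1 without the 2 arrays that stood apart and 0 to 1 without single arrays, the call coming without control day 1 replicate 22. The diet difference minus that on the diet with perchlorate gave 0 to 1, the call coming without diet with perchlorate day 1 replicate 3, and the diet difference minus control's gave 0 calls in every setting run. Both probe sets called there have no gene symbol here. At an unadjusted p under 0.05 the diet comparison had 2134 probe sets when its 6 arrays alone were fitted, 2193 without the 2 arrays and 2898 with weights, against 1305. On the values as deposited, the median diet difference over all probe sets was 0.0574, and that of the diet difference minus the one with perchlorate was 0.163. Slc5a5 was between -0.23 and 0.01. Both settings added after the data were seen, a filter or a separate normalization with the 6 arrays alone, gave 0 calls. With 3 arrays a group and 1 sample per array, differences under 1 log2 unit in dim or variable genes could not be settled.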
